A study of Arabidopsis thaliana with 6 samples.

Results

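The genes described here code for enzymes that remove or feed hydrogen peroxide: the catalases CAT1, CAT2 and CAT3, the ascorbate peroxidases APX1, APX2, APX3, SAPX and TAPX, and the NADPH oxidase RBOHD. They were taken by locus ID, which found 9 of 9 members among the 32834 loci of the count table, and all 9 had enough reads to be among the 20438 genes tested. Expression was measured by poly(A) RNA sequencing of whole Arabidopsis thaliana Col-0 seedlings aged 7 days, on medium with 1% sucrose and 10 µM dexamethasone. All were grown with 16 h of light per day at 120 µmol/m2/s, at 21 °C by day and 19 °C by night. The 3 groups, with 2 libraries each, were wild type (WT) and 2 sets of transgenic plants titled MIF_1 and MIF_3. The genotype of both transgenic sets was pTA7002-Dexp:Myc-MIF, a Myc-tagged MIF transgene in a vector that dexamethasone switches on. WT plants received dexamethasone as well, but the samples used here include no vector-only plants, so effects of MIF and of the induced vector cannot be told apart. The labels do not say whether MIF_1 and MIF_3 are independent lines or whether replicates were grown apart, and p-values therefore measure the spread between these libraries, which may be technical.

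Hydrogen peroxide arises in leaf cells mainly from photorespiration in peroxisomes and from electron transport in chloroplasts. Catalases split it into water and oxygen in peroxisomes, whereas ascorbate peroxidases reduce it with ascorbate in the cytosol, the chloroplast and at the peroxisome membrane. RBOHD works in the other direction: it makes superoxide at the plasma membrane, which is turned into hydrogen peroxide and serves as a signal in defence and stress.

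CAT3 (AT1G20620, chr1:7142972-7146540) and CAT1 (AT1G20630, chr1:7146636-7150180) are tandem neighbours on the plus strand of TAIR10.1 with 95 bases between them. CAT2 (AT4G35090, chr4:16700312-16703504, minus strand) lies 32.59 kb from APX3 (AT4G35000, chr4:16664724-16667721, minus strand). The sequences before each catalase gene are shown because the tandem genes CAT3 and CAT1 both had large differences between the MIF_3 replicates while CAT2 had none of that size. SAPX and APX1, which lie elsewhere in the genome, differed in the same direction but by less. Whether the sequences shown bear on any difference between libraries or groups was not tested. They are given 5′ to 3′ on the strand of the gene, from RefSeq TAIR10.1, ending at the base before the annotated start. Capitals mark the motif found.
CAT3, chr1:7142722-7142971, plus strand: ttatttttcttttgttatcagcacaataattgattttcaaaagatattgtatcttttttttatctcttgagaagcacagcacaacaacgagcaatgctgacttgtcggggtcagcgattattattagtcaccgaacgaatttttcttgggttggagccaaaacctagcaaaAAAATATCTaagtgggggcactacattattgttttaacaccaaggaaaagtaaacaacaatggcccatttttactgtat
CAT1, chr1:7146541-7146635, plus strand, the bases between both genes: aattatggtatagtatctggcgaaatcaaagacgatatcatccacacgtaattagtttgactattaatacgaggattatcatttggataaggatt
CAT2, chr4:16703505-16703754, minus strand: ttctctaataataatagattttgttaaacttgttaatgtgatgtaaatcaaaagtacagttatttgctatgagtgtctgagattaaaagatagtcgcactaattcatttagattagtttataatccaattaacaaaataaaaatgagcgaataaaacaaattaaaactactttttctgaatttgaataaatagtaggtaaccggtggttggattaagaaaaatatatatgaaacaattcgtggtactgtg
The motifs searched on both strands of the 250 bases before each start were the evening element AAAATATCT, the CCA1-binding site AAAAATCT, the G-box CACGTG, the heat shock element GAANNTTC and the W-box TTGACC. The CAT3 stretch held an evening element 79 bases before the start, a motif known from clock-regulated genes that peak late in the day. That motif occurs in 2.36% of the same stretch of 27443 protein-coding genes. None of these motifs was found before CAT1, CAT2, SAPX, TAPX or RBOHD. APX2, whose transcript is known to be induced by heat and strong light, held a heat shock element (9.55% of genes) and a G-box (6.49%). APX1 held a heat shock element and APX3 a G-box, and no 2 of the motif matches overlapped. RBOHD (AT5G47910, chr5:19397041-19402061, plus strand) is shown for contrast, and its stretch held none of the motifs. Its transcript was the only member called as higher against WT, and only in MIF_1.
RBOHD, chr5:19396791-19397040, plus strand: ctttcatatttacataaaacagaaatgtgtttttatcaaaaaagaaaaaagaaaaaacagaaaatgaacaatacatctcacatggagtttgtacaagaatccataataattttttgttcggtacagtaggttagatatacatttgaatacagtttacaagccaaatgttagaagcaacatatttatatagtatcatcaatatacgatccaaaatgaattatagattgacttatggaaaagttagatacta

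Total counts ranged from 18262579 to 24698636 reads per library. WT replicate 2 had more plastid-encoded reads (0.132% of its counts, against 0.0203% to 0.0273% elsewhere) and more reads of loci annotated as rRNA (1.04% against 0.298% to 0.468%). Markers of green tissue (RBCS1A, CA1, CFBP1 and RCA, 4 of 4 tested) summed to 40740 and 41730 CPM for the WT pair, 27460 and 28590 for the MIF_1 pair, and 30460 and 34370 for the MIF_3 pair, where CPM is read counts scaled to a library of 1e+06 reads with TMM factors and pairs are given as replicate 1, then replicate 2. Markers of root (7 of 7 tested) summed to between 1729 and 2393 CPM in the 6 libraries, most of it from PYK10 (1586 to 2265 CPM), which did not pass in either set. Of the 7, 1 rose in MIF_1 (EXPA7) and 2 rose in MIF_3 (EXPA7 and CASP1), 0 fell in either, and the median log2 fold change was 0.17 and 0.28. Markers of guard cells (2 of 2 tested) summed to 23.5 and 21.8 CPM for the WT pair, 13.4 and 14.9 for the MIF_1 pair, and 21.8 and 20.8 for the MIF_3 pair. In MIF_1 FAMA fell (log2 fold change -1.07, edgeR adjusted p = 0.00171) and MYB60 did not pass (-0.17, 0.664). Neither passed in MIF_3. SUC2 marks phloem companion cells and had 139.5 and 173.6 CPM for the WT pair, 116.8 and 114.8 for the MIF_1 pair, and 140.6 and 137.1 for the MIF_3 pair. SUC2 fell in MIF_1 (-0.43, edgeR adjusted p = 0.0296) and did not pass in MIF_3 (-0.17, 0.38). Of 5 seed markers only SESA2 was tested, with 0.201 and 0.121 CPM for the WT pair and 9.11 to 34.8 CPM in the transgenic libraries, and it rose in both sets. The other 4 seed markers did not have enough reads in enough libraries to be tested. In MIF_1 replicate 2, CRA1 had 146 reads, OLEO1 had 66 and CRU3 had 27. Elsewhere CRA1 had at most 9 reads, OLEO1 at most 6 and CRU3 0. SESA4 had 4 reads in MIF_1 replicate 2 and at most 8 elsewhere. In whole seedlings fewer cells of a type and less RNA per cell cannot be told apart, and the part of these shifts in the results below was not tested. The locus of MIF is not named in the labels, so its own transcript was not analysed here.

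Per exon length, the order of the 9 transcripts in WT ran from CAT2 to APX2. Levels in CPM per kilobase of exon (RPKM; mean ± SD, n = 2) were 1043 ± 32.7 for CAT2, 801 ± 5.86 for APX1, 248 ± 21.1 for CAT3 and 151 ± 5.24 for APX3. Below these lay SAPX at 87.4 ± 0.256, TAPX at 64.0 ± 1.83, RBOHD at 27.6 ± 0.915, CAT1 at 12.6 ± 0.695 and APX2 at 0.339 ± 0.479. No neighbours in this order overlapped between the WT libraries. In MIF_1, APX3 (120.3 and 120.9 RPKM) stood just above CAT3 (112 and 119), and RBOHD (41.6 and 51.8) stood above TAPX (36.7 and 38.8). In MIF_3 the ranges of CAT3 and APX3 overlapped, as did those of SAPX and TAPX.

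**Figure D1:**
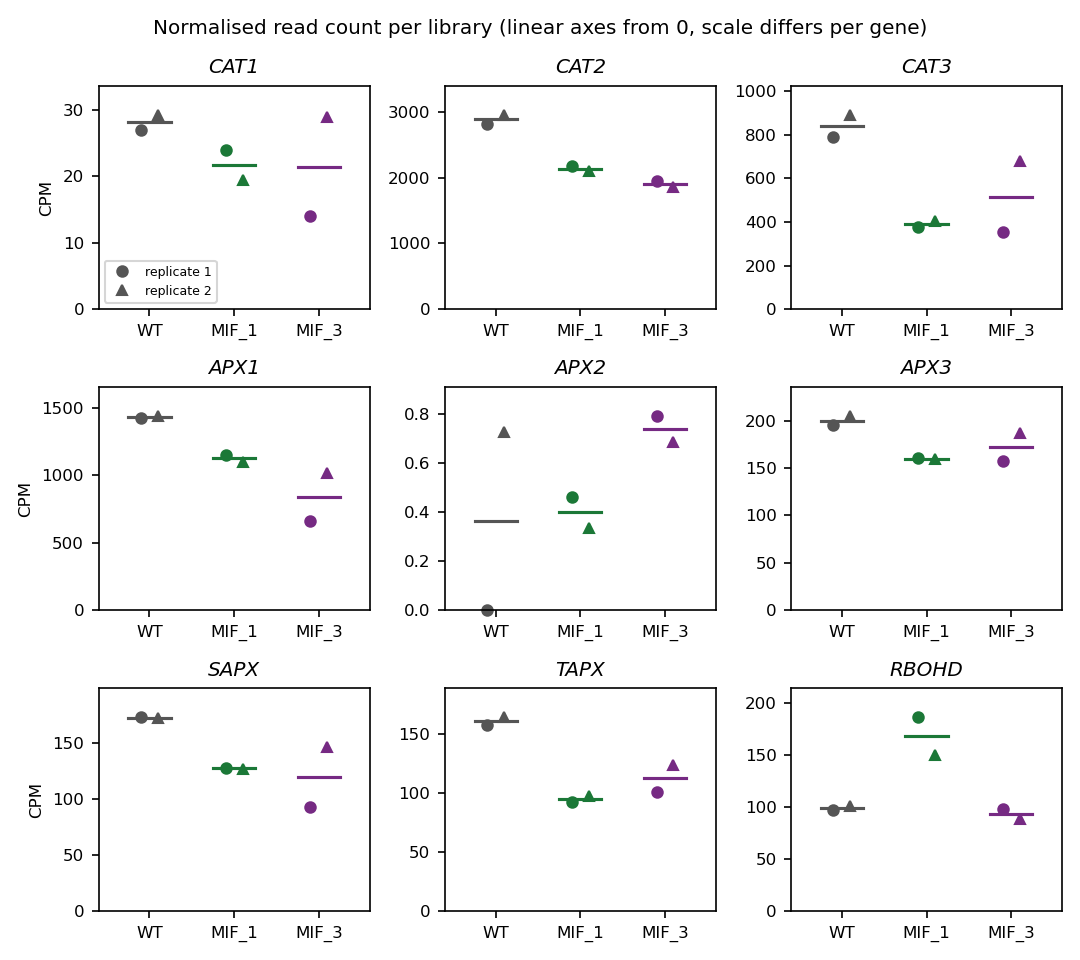
Normalised read counts (CPM, linear axes starting at 0, a scale for each gene) of the 9 genes in the 6 libraries; circles are replicate 1, triangles replicate 2 and bars the mean of 2. RBOHD is high in both MIF_1 libraries, CAT2 is lower in all 4 transgenic libraries than in WT, and CAT1 and CAT3 lie far apart between the MIF_3 replicates.

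Against WT, MIF_1 seedlings had less CAT2, CAT3 and TAPX transcript and more RBOHD transcript, and MIF_3 seedlings had less CAT2, APX1 and TAPX transcript. This comparison bears on the question in the design text, which transcripts differ with MIF expression. In MIF_1, 3 members fell, 1 rose and 5 were not called (edgeR quasi-likelihood test, adjusted p below 0.05 over all genes), where 17.7% of all genes passed, 7.82% as higher and 9.85% as lower. In MIF_3, 3 fell, 0 rose and 6 were not called, where 13.3% of all genes passed, 5.84% as higher and 7.47% as lower. With 9 members, these counts say little beyond the genes themselves, and both comparisons share the WT libraries. The groups did not overlap in CPM for 8 of 9 members in MIF_1 and 6 of 9 in MIF_3, but this was true of 59.4% and 56.9% of all genes. The median log2 fold change of the 9 was -0.37 in MIF_1 and -0.52 in MIF_3, and that of all genes was 0.01 in both.

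**Figure D2:**
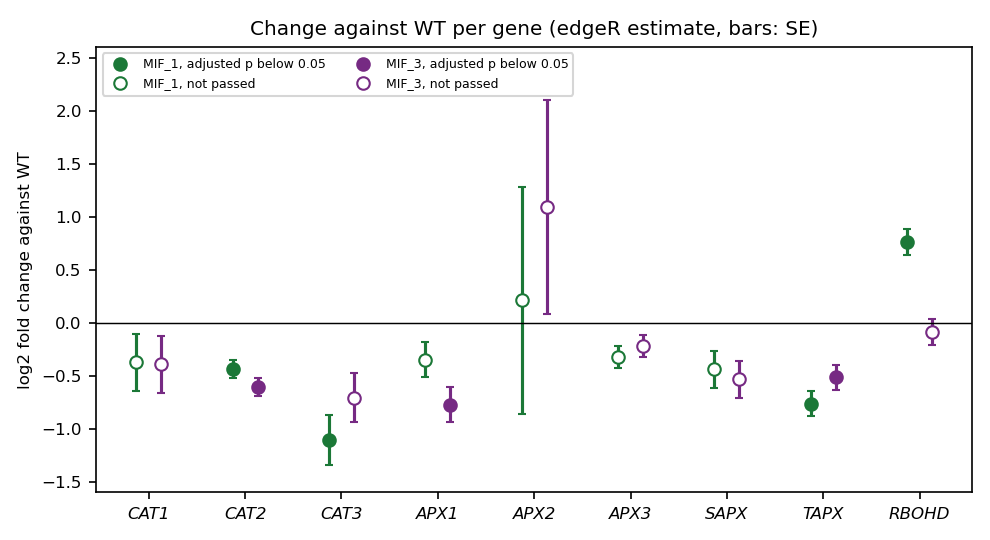
Log2 fold change against WT of each gene in MIF_1 (green) and MIF_3 (purple), with the standard error as bars; filled points passed the test. CAT2 and TAPX are filled below 0 in both sets, RBOHD is filled above 0 for MIF_1 and open near 0 for MIF_3, and APX2 has the widest bars.

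CAT2, the main leaf catalase, which clears the peroxide of photorespiration, was the most abundant member and was lower in both sets. Its level was 2822 and 2950 CPM for the WT pair, 2179 and 2095 for the MIF_1 pair, and 1941 and 1852 for the MIF_3 pair. All 4 transgenic libraries lay below both WT libraries, and the replicates of each group lay close together. CAT2 fell by 0.43 ± 0.09 log2 units in MIF_1 (SE, n = 2 against 2; edgeR adjusted p = 0.00840) and by 0.61 ± 0.09 in MIF_3 (adjusted p = 0.00197), which are levels of 0.741 and 0.657 times WT. The MIF_1 call was lost without either WT library (adjusted p = 0.0527 without replicate 1 and 0.0804 without replicate 2) or either MIF_1 library (0.0639 and 0.0948), whereas the MIF_3 call held without each library in turn. The last exon of CAT2 overlaps AT4G35080 on the opposite strand by 95 bases. AT4G35080 had 622 to 1096 reads per library and CAT2 had 45957 to 56258, and the strand setting of the counting is not known here.

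CAT3, a catalase found mostly in vascular tissue and in older leaves, whose transcript is known to cycle with an evening peak, was lowest in the MIF_1 libraries and in 1 MIF_3 library. Its level was 790 and 891 CPM for the WT pair, 379 and 403 for the MIF_1 pair, and 352 and 678 for the MIF_3 pair. MIF_3 replicate 1 lay slightly below the MIF_1 libraries, while MIF_3 replicate 2 lay nearer to WT, though still below it. CAT3 fell by 1.10 ± 0.24 log2 units in MIF_1 (SE; edgeR adjusted p = 0.0113), to 0.465 times WT. That call was lost without WT replicate 2 (0.0573) or either MIF_1 library (0.111 without replicate 1 and 0.0958 without replicate 2). In MIF_3 the log2 fold change was -0.71 ± 0.23 and did not pass (adjusted p = 0.0790, 95% interval -1.23 to -0.18), but it passed with no low-count filter (0.0272). It was -1.25 (adjusted p = 2.1e-05) without MIF_3 replicate 2 and -0.31 (0.099) without MIF_3 replicate 1.

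CAT1, known mostly from pollen, seeds and stress responses, had a low level and did not pass in either set. It had 27.0 and 29.2 CPM for the WT pair, 23.9 and 19.4 for the MIF_1 pair, and 13.9 and 28.9 for the MIF_3 pair. The WT and MIF_3 libraries overlapped, and the highest and lowest transgenic values were both from MIF_3. The log2 fold change was -0.37 ± 0.27 in MIF_1 (SE; edgeR adjusted p = 0.394, 95% interval -0.98 to 0.23) and -0.39 ± 0.27 in MIF_3 (adjusted p = 0.393, 95% interval -0.996 to 0.21). In MIF_3 it was -1.01 (adjusted p = 0.00431) without replicate 2 and 0.04 (0.927) without replicate 1.

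The make-up of the catalase transcripts also varied between libraries. Summed per exon length, the 3 genes reached 1265 and 1342 RPKM for the WT pair, 910.1 and 885 for the MIF_1 pair, and 812 and 882 for the MIF_3 pair, so that every transgenic library was below WT. The share of CAT2 in that sum was 80.6% and 79.4% for the WT pair, 86.5% and 85.6% for the MIF_1 pair, and 86.4% and 75.8% for the MIF_3 pair. The RPKM of CAT2 was 4.37 and 4.05 times that of CAT3 for the WT pair, 7.04 and 6.36 times for the MIF_1 pair, and 6.74 and 3.34 times for the MIF_3 pair. The ratio was thus raised in both MIF_1 libraries and in MIF_3 replicate 1, and was below WT in MIF_3 replicate 2. These ratios were not tested. Exon lengths were taken over all annotated transcripts of a gene, which lowers the RPKM of a gene with many transcript forms. CAT3 has 14 annotated exon records, against 12 for CAT2 and 7 for CAT1.

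**Figure D3:**
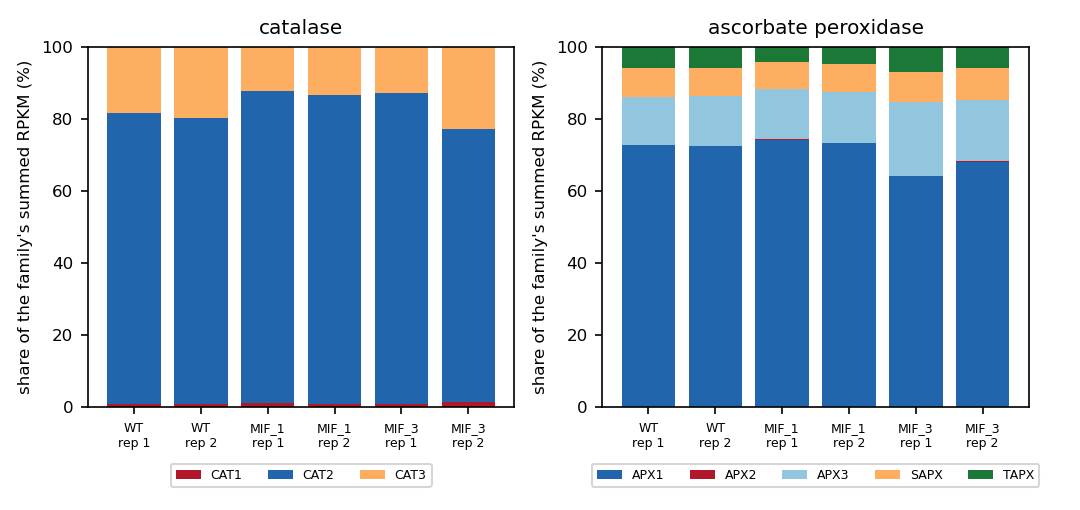
Share of each gene in the summed RPKM of the catalases (left) and of the ascorbate peroxidases (right), in percent, for each of the 6 libraries. CAT3 takes a smaller share in both MIF_1 libraries and MIF_3 replicate 1 (12.3% to 13.5%) than in WT (18.4% and 19.6%) and MIF_3 replicate 2 (22.7%), and APX1 takes its smallest share in MIF_3 replicate 1 (64.1%).

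The thylakoid enzyme was the ascorbate peroxidase called as lower in both sets. TAPX (AT1G77490, chr1:29117500-29121093) is bound to the thylakoid membrane, where it removes peroxide made by photosystem I. Its level was 158 and 164 CPM for the WT pair, 92.2 and 97.7 for the MIF_1 pair, and 101 and 124 for the MIF_3 pair. No transgenic library reached a WT value, and the 2 transgenic sets did not overlap each other. TAPX fell by 0.76 ± 0.12 log2 units in MIF_1 (SE; edgeR adjusted p = 0.00229) and by 0.52 ± 0.12 in MIF_3 (adjusted p = 0.0174). The MIF_1 call held without each library in turn, and the MIF_3 call was lost without WT replicate 1 (0.0625), WT replicate 2 (0.0879) or MIF_3 replicate 1 (0.0898).

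SAPX (AT4G08390, chr4:5314871-5317963), the stromal enzyme of the same branch, which also reaches mitochondria, had 173 CPM in both WT libraries and 128 and 127 in MIF_1. It had 92.7 and 147 CPM in MIF_3 replicates 1 and 2, on either side of the MIF_1 values. Its log2 fold change was -0.44 ± 0.17 in MIF_1 (SE; edgeR adjusted p = 0.116) and -0.53 ± 0.17 in MIF_3 (adjusted p = 0.0768), and neither passed. The 95% intervals were -0.83 to -0.05 and -0.92 to -0.14. With WT and MIF_1 fitted alone, so that the MIF_3 libraries did not enter the estimate of the spread, the MIF_1 difference passed (adjusted p = 0.0067), as it did without either MIF_3 library (0.00719 and 0.00789). In MIF_3 it passed without MIF_3 replicate 2 (log2 fold change -0.90, adjusted p = 0.000527), in DESeq2 (0.0242) and with no low-count filter (0.0365).

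APX1 (AT1G07890, chr1:2437281-2439665), the main cytosolic enzyme, had the second highest level per length. It had 1426 and 1441 CPM for the WT pair, 1152 and 1101 for the MIF_1 pair, and 661 and 1016 for the MIF_3 pair. The 6 values fell in the order of the groups with no overlap. In MIF_3 APX1 fell by 0.77 ± 0.16 log2 units (SE; edgeR adjusted p = 0.0139), to 0.585 times WT. That call was lost without WT replicate 1 (0.0596) or WT replicate 2 (0.0623), and the log2 fold change was -1.11 without MIF_3 replicate 2 and -0.50 without MIF_3 replicate 1. In MIF_1 the log2 fold change was -0.35 ± 0.16 and did not pass (adjusted p = 0.182, 95% interval -0.72 to 0.02), but it passed with WT and MIF_1 fitted alone (0.00343) or without either MIF_3 library (0.00336 and 0.00327).

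APX3, which is anchored in the peroxisome membrane, had the smallest log2 fold changes among the ascorbate peroxidases other than APX2 in MIF_1 and all of them in MIF_3. It had 195 and 205 CPM for the WT pair, 160.4 and 159.6 for the MIF_1 pair, and 158 and 187 for the MIF_3 pair, so that every transgenic library lay below WT. The log2 fold change was -0.32 ± 0.11 in MIF_1 (SE; edgeR adjusted p = 0.0645, 95% interval -0.56 to -0.09) and -0.22 ± 0.11 in MIF_3 (adjusted p = 0.222, 95% interval -0.45 to 0.02). The MIF_1 difference passed with WT and MIF_1 fitted alone (0.0288), without either MIF_3 library (0.0299 and 0.0323) and in DESeq2 (0.0428).

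APX2 (AT3G09640, chr3:2956156-2958330), the cytosolic copy that is strongly induced by heat and strong light, was hardly expressed. It had 0 and 12 reads for the WT pair, 11 and 8 for the MIF_1 pair, and 20 and 17 for the MIF_3 pair. The 0 reads in WT replicate 1 allow a level of up to 0.15 CPM (3 counts, counting error only), while WT replicate 2 had 0.723 CPM and the 4 transgenic libraries 0.332 to 0.790. The WT and MIF_1 libraries overlapped, WT replicate 2 lay within the MIF_3 range, and neither set passed (edgeR adjusted p = 0.921 in MIF_1 and 0.536 in MIF_3). The 95% intervals of the log2 fold change, -2.18 to 2.61 and -1.16 to 3.35, leave a large change in either direction undetectable here, and the WT replicates differed by 3.19 in log2 CPM, a gap reached by 0.103% of genes.

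Summed per exon length, the 5 ascorbate peroxidases reached 1094 and 1113 RPKM for the WT pair, 866 and 839 for the MIF_1 pair, and 576 and 832 for the MIF_3 pair. All 4 transgenic libraries lay below WT, with MIF_3 replicate 1 the lowest. APX1 took 72.8% and 72.4% of the sum in the WT libraries, and 64.1% and 68.2% in those of MIF_3, where the share of APX3 was 20.6% and 16.9% against 13.4% and 13.9%.

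RBOHD, the NADPH oxidase, was higher in MIF_1, where CAT2, CAT3 and TAPX were lower, and showed no such difference in MIF_3. Its level was 96.9 and 102 CPM for the WT pair, 187 and 150 for the MIF_1 pair, and 98.3 and 88.8 for the MIF_3 pair. Both MIF_1 libraries lay far above the other 4, and the WT and MIF_3 libraries overlapped. RBOHD rose by 0.76 ± 0.12 log2 units in MIF_1 (SE; edgeR adjusted p = 0.00301), to 1.70 times WT, and this call held without each library in turn (adjusted p up to 0.0351). In MIF_3 the log2 fold change was -0.09 ± 0.12 (adjusted p = 0.708, 95% interval -0.36 to 0.19). Compared directly, RBOHD was lower in MIF_3 than in MIF_1, with a log2 fold change of -0.85 ± 0.12 (SE; edgeR adjusted p = 0.00953). Of all genes 1.76% passed in that comparison, 1.29% as lower and 0.475% as higher in MIF_3. RBOHD was the 1 member called between the transgenic sets, and that call was lost without MIF_1 replicate 1 (log2 fold change -0.68, adjusted p = 0.13). The sets did not overlap in CPM for 5 of 9 members, which was true of 47.3% of all genes. The other 8 members did not pass, with CAT3 higher by a log2 of 0.40 ± 0.23 (adjusted p = 0.453) and APX1 lower, at -0.43 ± 0.16 (0.236). CAT3 passed without MIF_3 replicate 1 (0.79, adjusted p = 0.00142) and APX1 without MIF_3 replicate 2 (-0.77, adjusted p = 0.000765).

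The replicates of MIF_3 lay farther apart than those of WT or MIF_1 for CAT1, CAT3, APX1, APX3, SAPX and TAPX. From replicate 1 to replicate 2 of MIF_3, the log2 CPM differed by 1.04 for CAT1, 0.94 for CAT3, 0.66 for SAPX and 0.62 for APX1, all higher in replicate 2. Differences at least that large were seen in 4%, 4.9%, 9.62% and 10.8% of all genes between these libraries. CAT2 and RBOHD hardly differed there, by -0.07 and -0.15, which 77.9% and 56.3% of genes exceeded. In WT no member but APX2 differed by more than 0.173 between replicates, and in MIF_1 the largest was 0.387, for APX2. The median absolute difference over all genes was 0.177 between the WT libraries, 0.168 between those of MIF_1 and 0.175 between those of MIF_3. The chi-square of the counts per degree of freedom, which gives more weight to genes with many reads, was 10.4 between the WT replicates, 8.51 for MIF_1 and 22.3 for MIF_3. Green tissue markers summed to 30460 CPM in MIF_3 replicate 1 and 34370 in replicate 2, and their part in these differences was not tested.

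**Figure D4:**
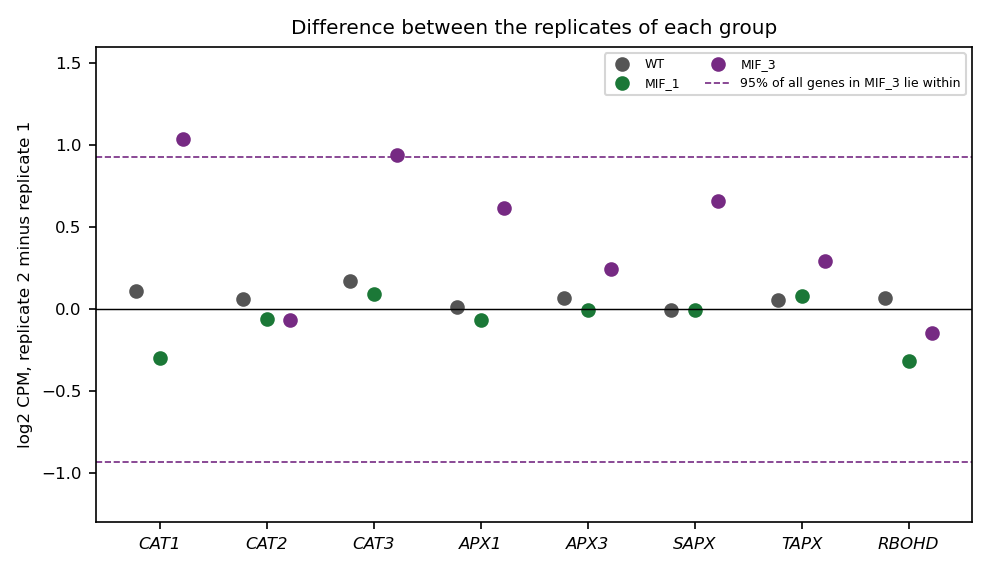
Difference in log2 CPM between replicate 2 and replicate 1 within WT (grey), MIF_1 (green) and MIF_3 (purple) for 8 of the 9 genes; APX2 is left out for its low counts. Dashed lines mark the range of 95% of all genes in MIF_3 (0.931 on either side); CAT1 and CAT3 lie beyond or at it, and CAT2 and RBOHD lie near 0.

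Genes that followed the members across the 6 libraries were picked by the smallest root mean square difference in centred log2 CPM, for the gene with the largest log2 fold change in each class. CAT3 was followed most closely by AT3G61870 (0.0927), by PSBQ-2 (0.0956), a subunit of the oxygen-evolving complex of photosystem II, and by PSAN (0.101), a subunit of photosystem I, among 17625 genes. PSBQ-2 had 1427 ± 37.1 CPM across WT libraries (SD, n = 2), 677 ± 50.6 across MIF_1 and 906 ± 291 across MIF_3. RBOHD was followed by NUFIP (0.0788), AT3G18600 (0.0965) and CNGC10 (0.100), a cyclic nucleotide-gated channel gene. NUFIP had 11.0 ± 0.579 CPM across WT libraries, 17.6 ± 1.82 across MIF_1 and 11.0 ± 0.490 across MIF_3. For APX2, with 0 to 20 reads per library, the nearest gene was BCB at 0.511, several times the distances found for CAT3 and RBOHD.

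Beyond the 9 members, 73 genes linked to peroxide metabolism were listed by function and 69 were tested. They include genes of photorespiration, catalase partners, and receptors and kinases that act on RBOHD, not only genes whose enzymes make or remove peroxide. In MIF_1, 8 rose, 19 fell and 42 did not pass (39.1% called, where 17.7% of all genes were), and in MIF_3 9 rose, 11 fell and 49 did not pass (29.0%, where 13.3% were). The median log2 fold change of the 69 was 0.00 in MIF_1 and 0.03 in MIF_3. The counts were 10 in MIF_1 without MIF_1 replicate 2 and 8 in MIF_3 without WT replicate 2.

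Genes of photorespiration, among them the glycolate oxidase genes GOX1 and GOX2 whose enzymes make peroxide inside peroxisomes, were lower in both sets, while those of peroxisomal acyl-CoA oxidases were not called. Of the 13 genes tested on the joint list, 0 rose and 8 fell in MIF_1 (61.5% called, where 17.7% of all genes were), and 0 rose and 7 fell in MIF_3 (53.8%, where 13.3% were). None of the 4 acyl-CoA oxidase genes passed in either set. Their log2 fold changes in MIF_1 and MIF_3 were 0.17 and 0.26 for ACX1 and 0.31 and 0.17 for ACX2. Those of ACX3 were -0.01 and -0.03, and those of ACX4 were -0.11 and 0.10. The 13 genes had medians of -0.46 and -0.40 against 0.01 for all genes. HPR1 (AT1G68010), the peroxisomal hydroxypyruvate reductase, had 1319 ± 26.3 CPM across WT libraries (SD, n = 2), 821 ± 46.6 across MIF_1 and 896 ± 62.7 across MIF_3. It fell by 0.68 ± 0.09 log2 units in MIF_1 (SE; edgeR adjusted p = 0.00153) and by 0.56 ± 0.09 in MIF_3 (adjusted p = 0.00462). SHM1 (AT4G37930), the mitochondrial serine hydroxymethyltransferase, fell by 0.65 ± 0.09 in MIF_1 (adjusted p = 0.00128) and by 0.40 ± 0.09 in MIF_3 (adjusted p = 0.0152). The MIF_3 call of SHM1 was lost without WT replicate 1 (0.0822) or 2 (0.117) and with WT and MIF_3 fitted alone (0.057). Green tissue markers, at 40740 and 41730 CPM in WT and 27460 to 34370 in the transgenic libraries, were lower in the same libraries, and their part was not tested.

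Genes that supply or recycle ascorbate moved in both directions. VTC2 (AT4G26850), the committed step of ascorbate synthesis, had 462 ± 62.8 CPM across WT libraries (SD, n = 2), 188 ± 24.2 across MIF_1 and 147 ± 15.4 across MIF_3. It fell by 1.30 ± 0.13 log2 units in MIF_1 (SE; edgeR adjusted p = 0.000334) and by 1.65 ± 0.14 in MIF_3 (adjusted p = 8.6e-05), more than any of the 9 members. Its paralogue VTC5 (AT5G55120) fell by 0.65 ± 0.12 (adjusted p = 0.00680) and 0.68 ± 0.12 (adjusted p = 0.00663), and the MIF_1 call was lost without MIF_1 replicate 1 (0.0542) or 2 (0.0688). Of 9 genes of ascorbate and glutathione synthesis, 1 rose and 3 fell in MIF_1 (44.4%, against 17.7% of all genes), and 1 rose and 2 fell in MIF_3 (33.3%, against 13.3%). The gene that rose in each set was GSH2, of glutathione synthesis, while the called genes of ascorbate synthesis all fell. Of 10 reductases of the ascorbate-glutathione cycle, which regenerate ascorbate and glutathione, 1 rose and 2 fell in MIF_1 (30.0%), and 1 rose and 0 fell in MIF_3 (10.0%, below the 13.3% of all genes). In MIF_1 the monodehydroascorbate reductase gene MDAR2 (AT5G03630) rose by 0.48 ± 0.10 (adjusted p = 0.00910) and the organellar glutathione reductase gene GR2 (AT3G54660) fell by 0.44 ± 0.09 (adjusted p = 0.0121). The MDAR2 call was lost without WT replicate 2 (0.0752) or either MIF_1 library (0.062 without replicate 1 and 0.0673 without replicate 2). That of GR2 was lost without either WT library (0.051 without replicate 1 and 0.0837 without replicate 2) or either MIF_1 library (0.105 and 0.0622).

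Peroxidases that use thiols rather than ascorbate included the largest rise. Of 15 glutathione peroxidase-like and peroxiredoxin genes tested, 3 rose and 5 fell in MIF_1 (53.3%, against 17.7% of all genes), and 4 rose and 2 fell in MIF_3 (40.0%, against 13.3%). The cytosolic peroxiredoxin gene TPX2 (AT1G65970, listed as PRXIIC) had 7.46 ± 0.540 CPM across WT libraries (SD, n = 2), 46.8 ± 2.58 across MIF_1 and 39.8 ± 8.45 across MIF_3. It rose by 2.65 ± 0.17 log2 units in MIF_1 (SE; edgeR adjusted p = 2.0e-05) and by 2.42 ± 0.17 in MIF_3 (adjusted p = 3.1e-05), and both calls held without each library in turn. TPX2 has the close copy TPX1 and overlaps 2 loci on the opposite strand, so reads could be split or shared. TPX1 (AT1G65980, listed as PRXIIB) also rose, by 0.75 ± 0.10 in MIF_1 (edgeR adjusted p = 0.00135) and by 0.49 ± 0.10 in MIF_3 (adjusted p = 0.0120). The plastid enzyme GPX1 (AT2G25080, listed as GPXL1) fell by 0.88 ± 0.10 in MIF_1 (adjusted p = 0.000553) and by 0.46 ± 0.10 in MIF_3 (adjusted p = 0.0155). Its MIF_3 call was lost without WT replicate 2 (0.121) and reached 0.05 without MIF_3 replicate 1. Of 3 further ascorbate peroxidase relatives, TL29 (AT4G09010, APX4), a protein of the thylakoid lumen, fell by 0.88 ± 0.12 in MIF_1 (adjusted p = 0.00144). In MIF_3 its log2 fold change was -0.36 ± 0.12 (adjusted p = 0.0805), which passed without MIF_3 replicate 2 (0.00982) and in DESeq2 (0.0446), and 2 loci overlap it on the opposite strand.

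Of the other NADPH oxidase genes 7 of 9 were tested, and 1 rose and 0 fell in each set, a share of 14.3% that is near the 17.7% and 13.3% of all genes called in MIF_1 and MIF_3. RBOHF (AT1G64060), the oxidase that acts beside RBOHD in stomata and defence, had 32.9 ± 2.66 CPM across WT libraries (SD, n = 2), 49.4 ± 5.30 across MIF_1 and 49.4 ± 10.1 across MIF_3. It rose by 0.59 ± 0.15 log2 units in MIF_1 (SE; edgeR adjusted p = 0.0275) and by 0.58 ± 0.15 in MIF_3 (adjusted p = 0.0340). The MIF_1 call was lost without any 1 library of WT or MIF_1 (adjusted p from 0.0641 to 0.18), and the MIF_3 call without any 1 library of WT or MIF_1 or without MIF_3 replicate 1 (from 0.0619 to 0.2) and with WT and MIF_3 fitted alone (0.061). Among 9 receptors and kinases that act on RBOHD, 2 rose and 0 fell in each set (22.2%, against 17.7% of all genes in MIF_1 and 13.3% in MIF_3). These were BAK1 (AT4G33430), a co-receptor of immune receptors, and CPK5 (AT4G35310), a calcium-dependent kinase that phosphorylates RBOHD. BAK1 rose by 0.39 ± 0.10 in MIF_1 (adjusted p = 0.0305) and by 0.57 ± 0.10 in MIF_3 (adjusted p = 0.00671). The MIF_1 call of BAK1 was lost without any 1 library of WT or MIF_1 (from 0.0995 to 0.148), and BAK1 overlaps a locus on the opposite strand. CPK5 rose by 0.45 ± 0.13 in MIF_1 (adjusted p = 0.0370) and by 0.50 ± 0.13 in MIF_3 (adjusted p = 0.0293). Its MIF_1 call was lost without any 1 library of WT or MIF_1 (from 0.0666 to 0.213), and its MIF_3 call without any 1 library of WT or MIF_1 or without MIF_3 replicate 1 (from 0.0527 to 0.166) and with WT and MIF_3 fitted alone (0.0503). Of 3 catalase partners (NCA1, LSD1 and SOS2) edgeR called 0 in both sets, with 0 at an unadjusted p below 0.05.

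**Figure D5:**
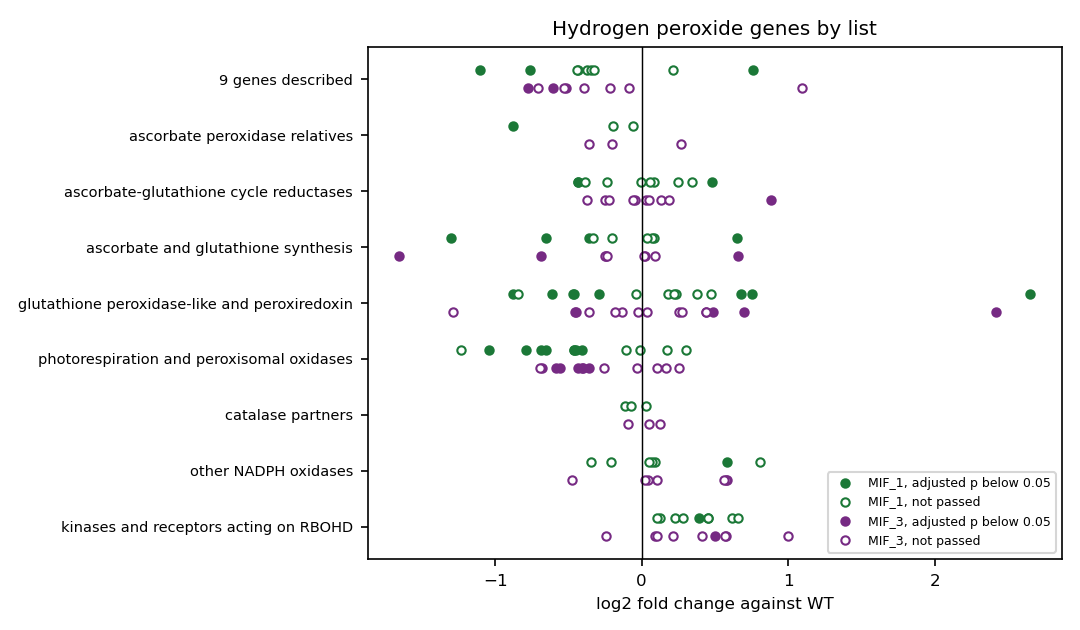
Log2 fold change against WT of each tested gene, by list, in MIF_1 (green) and MIF_3 (purple); filled points passed the test. Filled points of photorespiration and peroxisomal oxidases lie below 0 in both sets, those of the kinases and receptors acting on RBOHD lie above 0, and the points farthest right (2.65 and 2.42) are TPX2.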

How the data were processed

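The authors deposited raw counts of reads for each locus, in a column for each of 6 libraries of whole seedlings. Per the submitters' processing notes, fastp, STAR and HTSeq were used with TAIR10; no source used here gives versions, the annotation release, the strand setting or the treatment of multi-mapping reads. Libraries were grouped by title. Gene names, exon lengths and sequences came from RefSeq TAIR10.1 by locus ID; the count table holds no coordinates.

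Counts were tested with edgeR 4.0.16 (R 4.3.3), after the filterByExpr filter at a minimum count of 10 and a minimum total of 15, with TMM factors. The quasi-likelihood fit had 1 coefficient for each group and used all 6 libraries (3 residual degrees of freedom). Calls needed a Benjamini-Hochberg adjusted p below 0.05 over 20438 genes. Each SE was obtained by dividing the size of the log2 fold change by the square root of its F statistic. Total counts were 18262579 to 24698636 per library.

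The alternatives tried were RLE and upper-quartile scaling, DESeq2 1.42.0, no or a stricter filter (1 CPM in 2 libraries and a mean count of 50), organelle and rRNA loci removed, a replicate block, the groups compared alone, a threshold of 0.01, and leaving out each library. Where a group was left with 1 library, that library was assumed to vary like the others. The members and lists were chosen with earlier results of these data known. Pathway genes were named as the 2 per list with the smallest p against WT in either set, and of these the 12 called in either set are given with values. Log2 fold changes of the acyl-CoA oxidase genes and of TPX1 are given as well, and GSH2 is named, outside this rule.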

Additional observations from a re-analysis of the deposited data

Results flagged for a closer look

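RBOHD differed between the transgenic sets in the direct test of MIF_3 against MIF_1, with a log2 fold change of -0.85 ± 0.12 (SE, n = 2 against 2; edgeR adjusted p = 0.00953). Its change against WT was 0.76 in MIF_1 and -0.09 in MIF_3, and the MIF_1 libraries (187 and 150 CPM) did not overlap those of MIF_3 (98.3 and 88.8 CPM). Such a lack of overlap was seen for 47.3% of all genes, and the call was lost without MIF_1 replicate 1. No explanation was tested.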

How the results depend on the processing

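With 2 libraries per group, the counts of calls moved with single libraries. Of 402 values of the 9 members under the alternatives, 358 kept their direction and their side of the threshold, 16 lost a call, 19 gained one and 9 changed sign. With 1 library left out, called members ranged from 2 to 7 in MIF_1 (4 with all libraries), from 1 to 6 in MIF_3 (3), and from 0 to 2 in MIF_3 against MIF_1 (1). Pathway genes ranged from 10 to 30 (27), 8 to 21 (20) and 0 to 4 (0), and all genes from 1332 to 3947 (3612), 1575 to 2435 (2720) and 20 to 506 (360). With the groups compared alone, 7 members were called in MIF_1, and 13 pathway genes in MIF_3. With no low-count filter, 5 members were called in MIF_3, and 2 pathway genes and 687 of all genes in MIF_3 against MIF_1. DESeq2 called 3 pathway genes and 775 of all genes in MIF_3 against MIF_1, where 15 pathway genes had an unadjusted p below 0.05 in edgeR. At a threshold of 0.01, 14 pathway genes and 1575 of all genes were called in MIF_1, 1 member, 6 pathway genes and 1143 of all genes in MIF_3, and 101 of all genes between the sets. The 9 changes of sign were in values that had not passed. Leaving out 1 library moved the log2 fold change of APX2 in MIF_1 between -0.85 (WT replicate 1) and 6.25 (WT replicate 2), with -0.051 when MIF_1 replicate 1 was omitted. For CAT1 in MIF_3 the range was -1.01 to 0.040. Between MIF_3 and MIF_1 the ranges were -0.64 to 0.41 for CAT1, -0.15 to 0.79 for CAT3, -0.024 to 0.22 for APX3 and -0.46 to 0.20 for SAPX, and CAT1 was 0.14 when MIF_1 replicate 1 was omitted and 0.0012 with upper-quartile scaling. The cause of these shifts was not tested, beyond the smaller number of samples in the fits that leave libraries out. The replicate numbers are not said to mark a shared batch, and the differences between replicates correlated by -0.0421 (MIF_1 and WT), -0.0362 (MIF_3 and WT) and 0.0364 (MIF_3 and MIF_1) across 20438 genes. With the replicate block 4 members were called in MIF_1, 4 in MIF_3, where CAT3 passed (adjusted p = 0.0351), and the MIF_1 calls of BAK1 (0.0503) and CPK5 (0.0545) were lost. APX2 had at most 20 reads in a library.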
